A study of Danio rerio with 15 samples.

Results

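The 10 libraries described here are RNA sequencing of zebrafish (Danio rerio) testis tissue, from adult animals of wild type genotype, 5 taken from recovering testes and 5 from depleted testes, out of 14 libraries with a count table. Members were chosen by their titles alone, which name each sample as a recovery or a depletion replicate. All 10 samples share the adult stage, the wild type genotype and the testis tissue. The labels give neither the means of depletion nor the time allowed for recovery, and the series title places the work in hormone, retinoic acid and androgen control of spermatogenesis. The 4 control testes with a table enter only an alternative fit, and a further control sample was not analysed here. Each library was made from 2 µg of total RNA. The recovering libraries held 8661834 to 25035915 counts and the depleted libraries 8123444 to 10059498 counts. Levels are CPM, counts scaled to 1000000 per library after a trimmed mean of M-values (TMM) correction, and a log2 fold change is recovering over depleted, so that 1 stands for a 2-fold higher level in recovering testes. Group means in CPM are given ± SD (n = 5 each) and log2 fold changes ± SE.

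In zebrafish, spermatogenesis takes place in cysts, in which Sertoli cells enclose germ cells that develop together from a spermatogonium. Spermatogonia divide by mitosis, spermatocytes pass through meiosis, and spermatids build a flagellum before they are released as sperm. Leydig cells between the tubules make androgens and insulin-like 3 under the control of the pituitary gonadotropins, and Sertoli cells send growth factors and retinoic acid signals to the germ cells. A testis that has lost its germ cells and is refilling from spermatogonia therefore holds changing proportions of these cell types. Both groups held RNA of the somatic cells of a testis: gsdf, a Sertoli cell growth factor (ENSDARG00000075301), was at 817 to 1720 CPM in recovering and 872 to 2920 CPM in depleted testes, and insl3, the Leydig cell insulin-like 3 (ENSDARG00000035862), at 1680 to 2250 CPM in recovering and 353 to 8780 CPM in depleted testes.

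Of 19843 genes tested, 10352 (52.2%) differed between recovering and depleted testes at an adjusted p under 0.05 in edgeR's quasi-likelihood test. The level was higher in recovering testes for 4790 genes (24.1%) and lower for 5562 genes (28.0%). Among the genes that rose, 3382 had a log2 fold change over 1, 1419 over 2 and 343 over 3, and among those that fell 4165 passed −1, 1230 passed −2 and 201 passed −3. The median log2 fold change was 1.44 over the genes that rose and −1.42 over those that fell, with median SE of 0.35 and 0.33, and −0.06 over all genes. These are changes in the make-up of a tissue's RNA: in bulk samples, fewer cells of a type and less RNA per cell cannot be told apart. Scaling by total counts moved the median of all genes to 0.24, so that 6259 genes (31.5%) rose and 3718 (18.7%) fell, and the share of calls that rose was then 62.7% in place of 46.3%.

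The change was also one of abundance. Genes that rose held 31.7 to 44.8% of all counts in the recovering libraries, against 7.6 to 17.8% in the depleted libraries, and genes that fell held 19.2 to 32.7% in the recovering libraries, against 51.6 to 65.1% in the depleted libraries. Neither range overlapped between the groups, although these shares use the values by which the genes were called. When genes were divided by mean level into 5 bins of equal size, the share that rose was 19.0% in the lowest bin (0.651 to 4.05 CPM) and 32.3% in the highest (over 56.1 CPM), and the share that fell was 17.0% and 32.8%. The median SE was 0.52 in the lowest bin and 0.26 in the highest. Called genes of the lowest bin had median log2 fold changes of larger size. These were 2.1 against 1.25 in the highest bin for rising genes, and −1.73 against −1.35 for falling genes. At a larger SE a gene needs a larger fold to be called, so this difference follows in part from the calling.

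**Figure D1:**
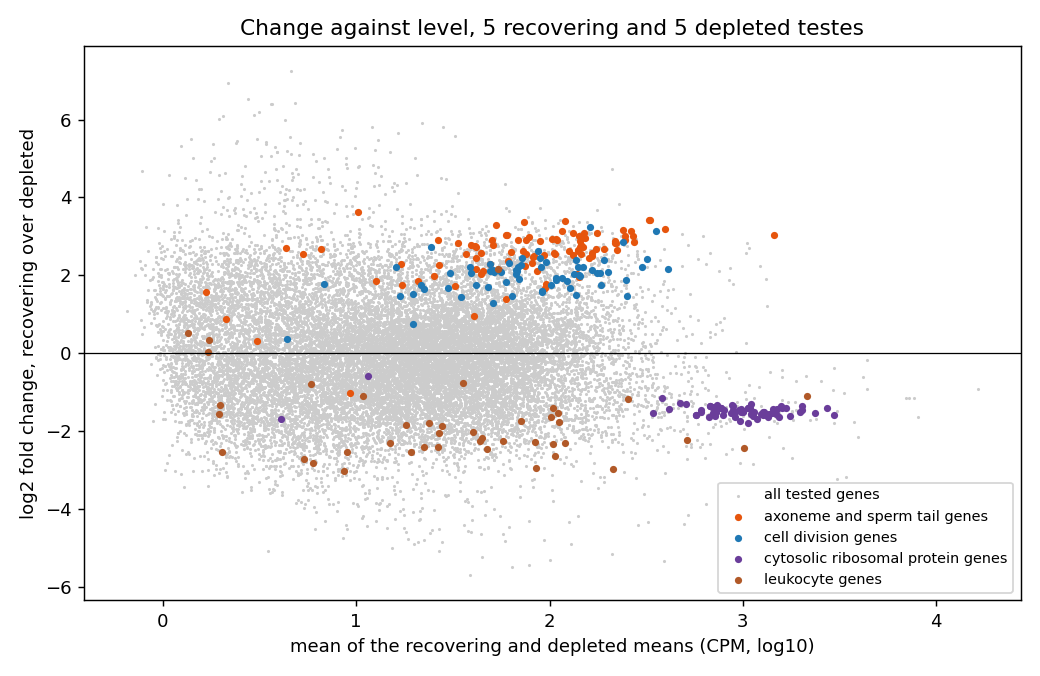
Log2 fold change of recovering over depleted testes (vertical axis) against the log10 of the mean of both group means in CPM (horizontal axis) for all 19843 genes tested. Coloured points mark the axoneme and sperm tail genes and the cell division genes, which lie almost entirely above 0, and the ribosomal protein genes and leukocyte genes, which lie almost entirely below it.

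Consistency across replicates differed by direction. For 3889 genes (19.6% of those tested) all 5 recovering libraries were above all 5 depleted libraries, and for 2985 genes (15.0%) all were below. Of the genes called as rising 74.3% showed no overlap, and of those called as falling 52.9%. Conversely, 328 genes lay higher in every recovering library without passing the test; their median log2 fold change was 2.15 and their median SE 0.95. Of these 328 genes, 235 were called when depleted replicate 2 was left out, a fit that called 29.7% of all genes as rising. The 328 genes were picked for their lack of overlap, and replicate 2 was the depleted library nearest to the recovering ones. More calls among them therefore follow from the choice.

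The depleted testes were the more variable group. The common dispersion, edgeR's squared coefficient of variation between replicates, was 0.139 in the recovering testes and 0.392 in the depleted testes. Correlations of log2 CPM between replicates were 0.916 to 0.946 in recovering and 0.731 to 0.912 in depleted testes. The first principal component took 68.1% of the variance and set the recovering libraries at 71.7 to 142 and the depleted libraries at −41.1, 24.0, −155, −160 and −205. Depleted replicates 1 and 2 were thus nearer to the recovering testes than the other 3 depleted libraries were. Summed over the germ plasm and piRNA pathway genes described below, replicates 1 and 2 held 41.3 and 49.0% of the recovering mean, against 2.54, 6.77 and 2.06% in replicates 3, 4 and 5. Without replicate 2, 6041 genes (29.7% of 20369) rose and 6421 (31.5%) fell. Without replicates 1 and 2, a fit chosen after the values had been seen, 6826 genes (32.7% of 20877) rose and 6272 (30.0%) fell. On all 10 libraries DESeq2 called 31.5% of genes as rising and 29.5% as falling, and limma-voom with sample weights 31.9% and 32.0%. The counts of the lists of germ cell genes are given with and without replicate 2.

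**Figure D2:**
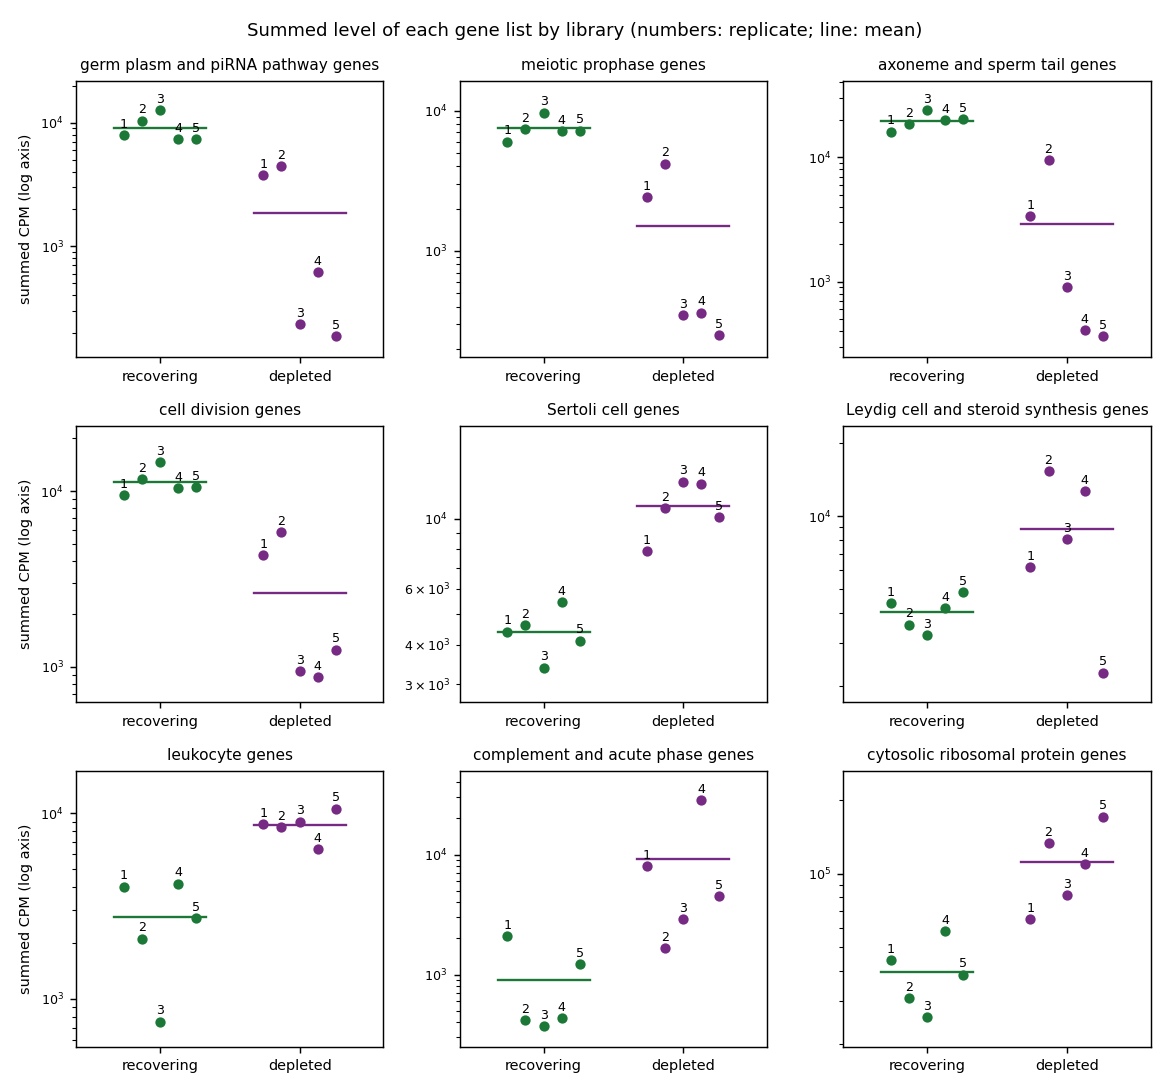
Summed CPM of 9 gene lists (log axis) in each library, recovering on the left and depleted on the right; numbers are replicates and lines are group means. Depleted replicates 1 and 2 lie between the recovering libraries and the other 3 depleted libraries for germ plasm, meiotic, axoneme and cell division genes, and depleted replicate 4 stands highest for complement and acute phase genes.

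Germ cells were followed first through germ plasm and the piRNA pathway, whose proteins keep germ cell identity and silence transposons. The vasa helicase gene ddx4 (ENSDARG00000014373) had 1020, 1580, 1670, 959 and 894 CPM in the recovering testes, against 666, 625, 26.0, 102 and 1.84 CPM in the depleted testes. Every recovering library was higher than every depleted library, yet replicates 1 and 2 of the depleted testes came close to the recovering level while replicate 5 had almost none, and the difference did not pass the test (log2 fold change 2.11, SE 1.09, adjusted p = 0.122). piwil1, which codes for a Piwi protein that binds piRNAs (ENSDARG00000041699), had 1850, 2310, 2640, 1520 and 1730 CPM in the recovering testes, against 951, 1040, 14.8, 118 and 2.23 CPM in the depleted testes (log2 fold change 2.24, SE 1.2, adjusted p = 0.132). The RNA-binding protein gene dazl had 328, 455, 451, 291 and 292 CPM in the recovering testes, against 162, 136, 2.07, 18.1 and 0.262 CPM in the depleted testes (log2 fold change 2.52, SE 1.19, adjusted p = 0.093). The groups did not overlap for piwil1 or dazl either, and their calls failed in the same way, as did that of piwil2, a second Piwi gene, at 2.37 ± 1.22.

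Of the 22 germ plasm and piRNA genes tested, 7 rose, none fell, and all 22 had a positive log2 fold change, with a median of 2.26. The 7 calls of edgeR's test stand against 24.1% of all genes, and 18 of the 22 lay higher in every recovering library, against 19.6% of all genes. On the same 10 libraries DESeq2 called 21 of the 22 as rising and limma-voom with sample weights all 22. The count moved with single libraries: it was 16 without depleted replicate 2, 4 without depleted replicate 3, and 3 without depleted replicate 4, recovering replicate 2 or recovering replicate 3. With depleted replicates 1 and 2 left out, 21 of 22 rose with a median of 4.97, and ddx4, piwil1 and dazl reached 4.87, 5.53 and 5.79 (adjusted p = 0.00463, 0.00383 and 0.00215). That fit called 32.7% of all genes as rising. It leaves out the 2 depleted libraries richest in RNA of these genes, so larger folds follow from the choice and are no separate support. Among the called members was tdrd7a, a tudor domain gene of germ granules, with 939, 1020, 1890, 866 and 825 CPM in the recovering testes, against 263, 378, 8.51, 32.5 and 1.31 CPM in the depleted testes (log2 fold change 3.02, SE 1.17, adjusted p = 0.0497). Its call ended in 8 of the 10 fits that left out a library, all but those without depleted replicate 2 (log2 fold change 3.86) and depleted replicate 5, with adjusted p of 0.0655 to 0.0953. buc, which organizes the germ plasm of the zebrafish oocyte, rose more evenly, with 18.4 ± 2.89 CPM in recovering and 4.50 ± 3.45 CPM in depleted testes (log2 fold change 2.03 ± 0.47).

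Genes linked to spermatogonia did not move together. Of 20 tested, 2 rose and 7 fell, against 24.1% and 28.0% of all genes, 11 did not pass, and the median was −0.59. DESeq2 called 5 as rising and limma-voom with sample weights 4, and 2 rose without depleted replicate 2. The pluripotency factor gene nanog had 15.8, 32.4, 24.2, 23.1 and 15.0 CPM in the recovering testes, against 7.16, 7.68, 1.38, 1.81 and 1.57 CPM in the depleted testes (log2 fold change 2.49, SE 0.54, adjusted p = 0.00571), and no depleted library reached the lowest recovering one. sall4, a zinc finger gene of stem and germ cells, also rose (2.35 ± 0.87), but 8 of the 10 fits without a library did not call it, and its log2 fold change was 3 without depleted replicate 1. The largest falls were in the chemokine receptor gene cxcr4 (ENSDARG00000057633), with 1.22 ± 0.338 CPM in recovering and 8.10 ± 4.54 CPM in depleted testes, in bcl6b, a transcriptional repressor of mouse spermatogonial stem cells (−2.34 ± 0.35), and in the cyclin gene ccnd2 (ENSDARG00000051748; −2.34 ± 0.40). Cells other than germ cells also express these 3 genes, and which cells their falls came from was not tested. The summed level of the list was 1210 to 1700 CPM in recovering and 776 to 1250 CPM in depleted testes. nanos3 did not pass the filter on low counts, and nanos2 was not matched to an identifier.

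Most meiotic genes were higher in every recovering testis. sycp3, which codes for a protein of the axial element of meiotic chromosomes (ENSDARG00000013438), had 250, 218, 445, 328 and 269 CPM in the recovering testes, against 99.9, 188, 2.76, 4.39 and 0.787 CPM in the depleted testes (log2 fold change 2.35, SE 1.19, adjusted p = 0.115), without overlap and without passing the test. sycp1, which codes for the transverse filament of the synaptonemal complex (ENSDARG00000003904), had 1500, 1630, 2350, 1900 and 1900 CPM in the recovering testes, against 358, 979, 52.3, 24.4 and 12.6 CPM in the depleted testes (log2 fold change 2.70, SE 1.04, adjusted p = 0.0484). spo11, the gene of the enzyme that makes meiotic double-strand breaks, had 42.0, 63.4, 58.7, 58.3 and 58.1 CPM in the recovering testes, against 15.6, 38.8, 2.19, 4 and 0.919 CPM in the depleted testes (log2 fold change 2.19, SE 0.82, adjusted p = 0.0442). The groups did not overlap for sycp1 or spo11. The recombinase gene dmc1 had 89.6, 171, 183, 143 and 128 CPM in the recovering testes, against 69.8, 150, 0.46, 1.94 and 0 CPM in the depleted testes (log2 fold change 1.68, SE 1.36, adjusted p = 0.305), and depleted replicate 2 lay within the recovering range.

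Of 39 meiotic prophase genes tested, 19 rose and none fell, against 24.1% and 28.0% of all genes, 38 had a positive log2 fold change, and the median was 2.19. In 32 of the 39 every recovering library was the higher, against 19.6% of all genes. mei4, needed for double-strand breaks in mouse, showed 82.9 ± 14.7 CPM in recovering and 10.8 ± 14.1 CPM in depleted testes (log2 fold change 2.94 ± 0.85, or 4.03 without depleted replicate 2). The calls of sycp1 and spo11 were narrow: both ended in 9 of the 10 fits without a library, at adjusted p of 0.0554 to 0.0901 for sycp1 and 0.0504 to 0.0866 for spo11. The exception was the fit without depleted replicate 2, where the log2 fold changes were 4.06 for sycp1, 3.30 for spo11 and 3.49 for sycp3 (adjusted p = 0.00611, 0.00355 and 0.0345), and 34 of 39 genes rose. In every fit that left out 1 library other than depleted replicate 2, 14 to 16 of the 39 rose. DESeq2 called 31 of the 39 as rising on all 10 libraries, and limma-voom with sample weights 38. With depleted replicates 1 and 2 left out 38 of 39 rose, against 32.7% of all genes, with a median of 5.59, and dmc1 reached 7.53 (adjusted p = 0.000112). Those 2 libraries held the most meiotic RNA of the depleted testes, so larger folds follow from leaving them out. Summed meiotic levels in depleted replicates 1 to 5 were 32.3, 56.0, 4.64, 4.85 and 3.37% of the recovering mean.

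Cell division genes rose in nearly every member. The proliferation antigen gene mki67 (ENSDARG00000091150) had 590, 659, 934, 559 and 616 CPM in the recovering testes, against 295, 262, 48.8, 49.1 and 92.5 CPM in the depleted testes (log2 fold change 2.17, SE 0.54, adjusted p = 0.00924). pcna, the sliding clamp of DNA replication (ENSDARG00000054155), had 331, 437, 455, 340 and 282 CPM in the recovering testes, against 190, 172, 69.0, 68.4 and 173 CPM in the depleted testes (log2 fold change 1.46, SE 0.33, adjusted p = 0.00707). foxm1, a transcription factor of G2 and M phase genes, had 500, 533, 923, 715 and 521 CPM in the recovering testes, against 79.2, 243, 22.7, 7.10 and 7.87 CPM in the depleted testes (log2 fold change 3.15, SE 0.92, adjusted p = 0.0179). For all 3 genes the groups stood apart, with recovering replicate 3 the highest, and depleted replicates 1 and 2 were above replicates 3 and 4 in each.

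Of 65 cell division genes tested, 60 rose, none fell and 57 showed no overlap, with a median log2 fold change of 2.05. These counts stand against 24.1% and 19.6% of all genes. With depleted replicate 2 left out 64 of 65 rose. The rising count was 43 to 56 in every fit that left out 1 other library, lowest without recovering replicate 3, and none fell. e2f8, which represses E2F targets late in the cycle, was among the 3 largest changes of the list (3.24 ± 0.71, with 294 ± 38.7 CPM in recovering and 31.2 ± 32.8 CPM in depleted testes). Without depleted replicate 2 the log2 fold change was 4.45 for foxm1 and 3.93 for e2f8. The list does not separate mitotic from meiotic divisions. The summed level was 9460 to 14600 CPM in recovering testes, against 4300 and 5860 CPM in depleted replicates 1 and 2 and 869 to 1250 CPM in the other 3.

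**Figure D3:**
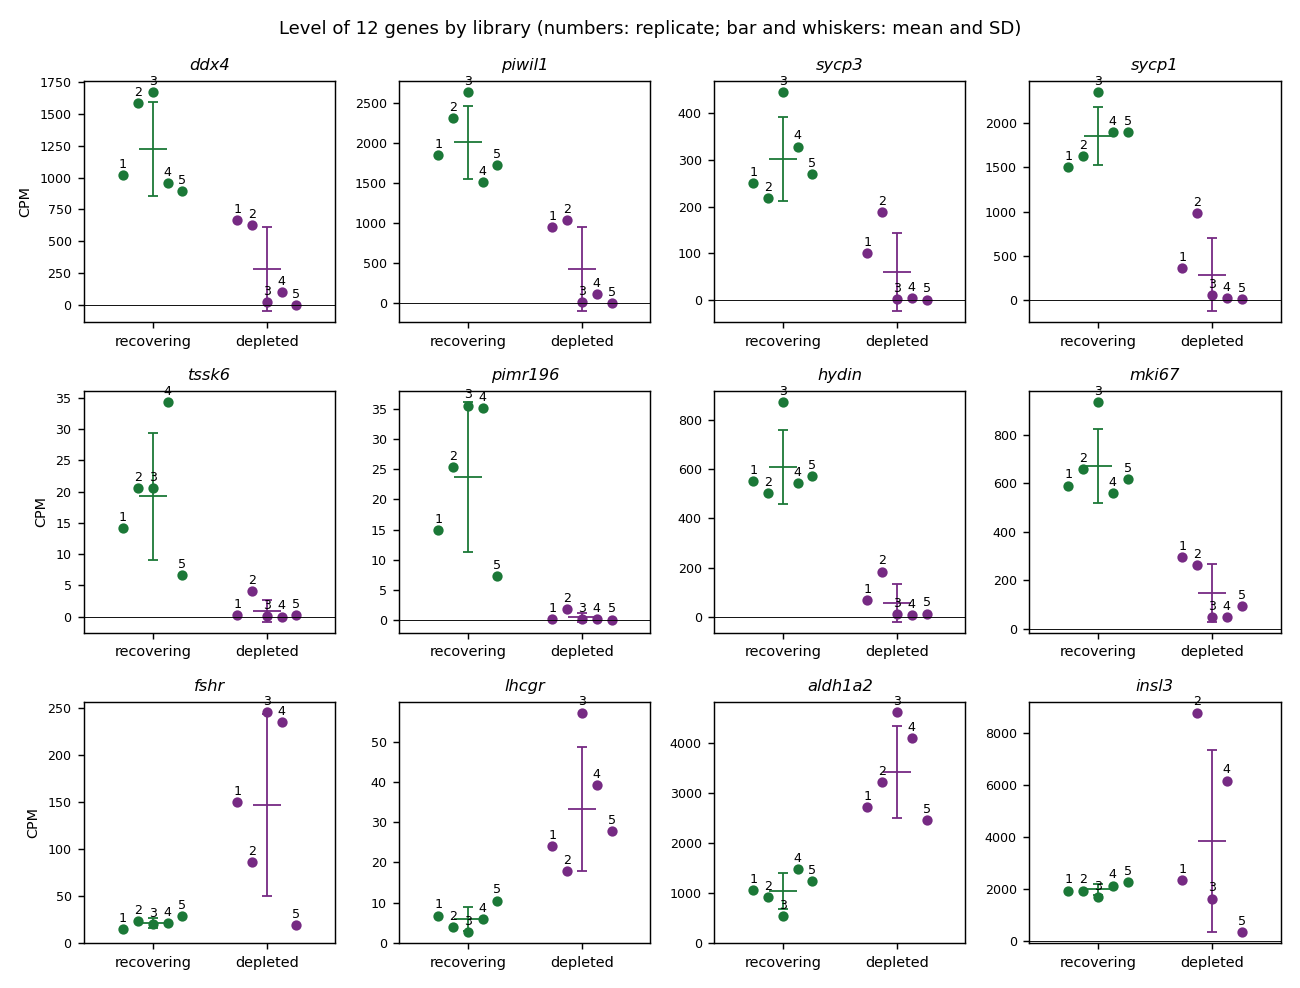
CPM of 12 genes in each library, recovering on the left and depleted on the right, with the group mean and SD; numbers are replicates. The germ cell genes of the upper rows are higher in every recovering library, with depleted replicates 1 and 2 above the other depleted libraries for ddx4, piwil1, sycp3 and sycp1, while fshr, lhcgr and aldh1a2 are lower in recovering testes on average.

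Genes of the flagellum, which spermatids assemble from an axoneme of microtubules and dynein arms, were next. hydin, which codes for a protein of the central pair apparatus (ENSDARG00000056764), had 549, 503, 870, 543 and 570 CPM in the recovering testes, against 66.9, 184, 10.4, 6.97 and 13.9 CPM in the depleted testes (log2 fold change 3.43, SE 0.87, adjusted p = 0.0103). dnah5l, an outer arm dynein heavy chain gene (ENSDARG00000056888), had 1960, 2850, 3390, 2140 and 2520 CPM in the recovering testes, against 529, 965, 39.3, 22.9 and 6.69 CPM in the depleted testes (log2 fold change 3.04, SE 1.14, adjusted p = 0.0453). In both, every recovering library exceeded the highest depleted one, which was replicate 2. dnai2b, a dynein intermediate chain gene, had 19.0 ± 3.09 CPM in recovering and 1.53 ± 1.98 CPM in depleted testes (3.62 ± 0.88). Of 94 axoneme and sperm tail genes tested, 65 rose, none fell and 81 showed no overlap, against 24.1% of all genes that rose and 19.6% without overlap, and the median log2 fold change was 2.67.

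Many of these calls were narrow. The count of rising axoneme genes was 91 without depleted replicate 2, but 31 without depleted replicate 1, 29 without depleted replicate 3 and 38 without depleted replicate 4. It was 39, 28, 38 and 35 without recovering replicates 2, 3, 4 and 5, while 93 of the 94 log2 fold changes were positive in the full comparison. The call of dnah5l ended in 8 of the 10 such fits, at adjusted p of 0.0601 to 0.0811, and its log2 fold change was 4.11 without depleted replicate 2, where hydin reached 4.63 and dnai2b 4.57. With depleted replicates 1 and 2 left out 92 of 95 rose and 1 fell, against 32.7% and 30.0% of all genes, with a median of 5.51. Those 2 libraries held the most axoneme RNA of the depleted testes, so larger folds follow from leaving them out. The ciliary transcription factor genes foxj1b and rfx3, named after their values were seen, rose by 2.82 ± 0.86 and 2.79 ± 0.82 on the log2 scale, and by 4 and 4.11 without depleted replicate 2. A wider set of 130 genes was picked by symbol, the axonemal dyneins and the cilia and coiled-coil associated families. It had 63 rising and 17 falling members, against 24.1% and 28.0% of all genes, and a median of 1.98. Without depleted replicate 2 it had 85 rising and 16 falling members, against 29.7% and 31.5% of all genes, and a median of 2.78. Its rising count was 30 to 38 without any 1 of depleted replicates 1, 3 and 4 or recovering replicates 2 to 5. tekt1 was not matched, and cimap1b, the current name of odf3b, was at 2.74 ± 3.40 CPM in recovering and 1.51 ± 1.87 CPM in depleted testes and was not called (log2 fold change 0.87, SE 1.12, adjusted p = 0.521).

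The share of the recovering level that remained in depleted testes differed between these lists. In depleted replicate 1 it was 41.3% for germ plasm genes, 37.9% for cell division genes, 32.3% for meiotic genes and 17.1% for axoneme genes. In depleted replicate 2 the shares were 49.0, 51.7, 56.0 and 48.1%. In replicates 3 to 5 germ plasm genes held 2.06 to 6.77%, meiotic genes 3.37 to 4.85% and axoneme genes 1.86 to 4.58%, whereas cell division genes held 7.67 to 11%.

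Genes of spermatids and of sperm-egg fusion included some of the largest changes. tssk6, a testis-specific serine kinase needed for sperm chromatin condensation in mouse (ENSDARG00000017994), had 14.2, 20.6, 20.5, 34.3 and 6.65 CPM in the recovering testes, against 0.227, 4.04, 0.115, 0 and 0.262 CPM in the depleted testes (log2 fold change 4.39, SE 1.02, adjusted p = 0.0075). Only depleted replicate 2 stood above 0.262 CPM among the depleted libraries. The other 4 held under 3 counts each, so no fold without it is given. spaca6, a sperm membrane gene needed for fertilization, had 56.3, 40.0, 94.5, 83.5 and 74.0 CPM in the recovering testes, against 9.89, 19.8, 2.07, 0.129 and 0 CPM in the depleted testes (log2 fold change 3.45, SE 1.08, adjusted p = 0.0237); the log2 fold change was 4.50 without depleted replicate 2, and the call ended without depleted replicate 3 (adjusted p = 0.0519). Of 32 spermatid and gamete fusion genes tested 12 rose and 3 fell, against 24.1% and 28.0% of all genes, with a median of 1.83. DESeq2 called 20 as rising and limma-voom with sample weights 22. The rising count was 22 without depleted replicate 2, with a median of 2.55, 4 without depleted replicate 3, 7 without depleted replicate 4 or recovering replicate 4, and 5 without recovering replicate 3. Against the rest of the list went septin12, a septin of the mammalian sperm annulus (−2.11 ± 0.57), and tuba8l2, an alpha tubulin gene (−1.26 ± 0.27), both lower in every recovering library. Summed levels of the list in depleted replicates 1 to 5 were 60.7, 84.7, 45.5, 51.6 and 64.6% of the recovering mean. The list summed to 1760 to 3260 CPM in depleted testes. Of the members that were higher there, septin12 was at 35.6 to 204 CPM and tuba8l2 at 63.8 to 132 CPM, a small part of the sums. The members that made up the rest are not given here, so the sums are not read as spermatid RNA that remained. In depleted replicates 3 to 5 tssk6 was at 0 to 0.262 CPM and spaca6 at 0 to 2.07 CPM. izumo1 was not matched to an identifier.

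The pimr genes, a large zebrafish family related to the Pim serine/threonine kinases, filled most of the list of largest rises. pimr196 (ENSDARG00000052319) had 14.9, 25.4, 35.6, 35.2 and 7.26 CPM in the recovering testes, against 0.114, 1.75, 0.115, 0.129 and 0 CPM in the depleted testes (log2 fold change 5.82, SE 0.92, adjusted p = 0.00261), and pimr189 had 10.7, 16.8, 12.6, 34.3 and 8.12 CPM in the recovering testes, against 0.682, 1.75, 0.92, 1.16 and 0 CPM in the depleted testes (log2 fold change 4.18, SE 0.70, adjusted p = 0.00272). Recovering replicates 3 and 4 were the highest for pimr196, recovering replicate 5 the lowest, and no depleted library came near. Of the 12 largest rises with a mean of at least 5 CPM and no overlap, 9 were pimr genes, with pimr177, pimr180, pimr185, pimr173, pimr204, pimr179 and pimr210 at log2 fold changes of 3.88 to 5.27. Without depleted replicate 2 the log2 fold changes of pimr180, pimr185, pimr173, pimr204, pimr179 and pimr210 were 4.85 to 6.41. For pimr180, pimr173 and pimr179 only depleted replicate 1 then held more than 3 counts, so the size of these folds is uncertain. pimr196 and pimr177 then had 3 counts or fewer in each remaining depleted library, so no fold is given.

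The family as a whole was examined after this was seen. Of 95 pimr identifiers 58 were tested, 39 rose, none fell, and 40 showed no overlap, against 24.1% of all genes that rose and 19.6% without overlap, with a median of 2.96. The members that prompted the choice are counted among these. Members with almost no counts in depleted testes passed the low-count filter through the recovering libraries alone and could hardly come out as falling. The counts are therefore a description and no support for a rise of the whole family. Without depleted replicate 2, 53 of 61 rose, against 29.7% of all genes, and without replicates 1 and 2, 60 of 66, against 32.7%. Both fits leave out depleted libraries with the highest pimr levels, so more calls follow from the choice. The summed level was 421, 649, 773, 790 and 332 CPM in recovering testes, against 153, 223, 73.6, 47.6 and 7.61 CPM in depleted testes. The widest gaps between the groups also fell mostly to this family: pimr88, pimr175 and pimr195 averaged 6.22, 7.21 and 7.24 CPM in recovering testes, against 0.0769, 0.0797 and 0.0809 CPM in depleted testes, which is under the level of 3 counts in a library, so that no fold is given. pimr205 averaged 7.48 CPM in recovering and 0.263 CPM in depleted testes. Members of so large a family may share reads, and how such reads were counted is not given in the sources used here, so the value of any single member is uncertain.

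The other 3 of the 12 largest rises were tssk6, nampt and muc5.2. nampt (ENSDARG00000076694), which makes a precursor of NAD, averaged 19.0 ± 8.25 CPM in recovering and 1.01 ± 1.51 CPM in depleted testes (4.24 ± 0.84, or 5.69 without depleted replicate 2). In the latter fit only depleted replicate 1 held more than 3 counts of nampt, so the size of that fold is uncertain. The gel-forming mucin gene muc5.2 averaged 10.2 ± 16.5 CPM in recovering and 0.662 ± 0.651 CPM in depleted testes (3.90 ± 1.11). Its log2 fold change was 2.06 without recovering replicate 4. Without depleted replicate 1 it was 4.56, where only depleted replicate 2 held more than 3 counts. The widest gap of the named rises, just ahead of pimr88, was that of gjd2, a connexin gene (ENSDARG00000070781), with 8.74, 9.27, 7.33, 7.40 and 6.96 CPM in the recovering testes, against 0.682, 0.135, 1.04, 0.645 and 0 CPM in the depleted testes (log2 fold change 3.94, SE 0.61, adjusted p = 0.00252). Its recovering libraries differed little from each other. Genes named for their difference in mean CPM, which also depends on transcript length, included dnah5l and sycp1. Of the others, pcm1, of the centriolar satellites, averaged 1410 ± 239 CPM in recovering and 312 ± 264 CPM in depleted testes, and the cohesin gene smc3 1340 ± 258 CPM in recovering and 365 ± 222 CPM in depleted testes.

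**Figure D4:**
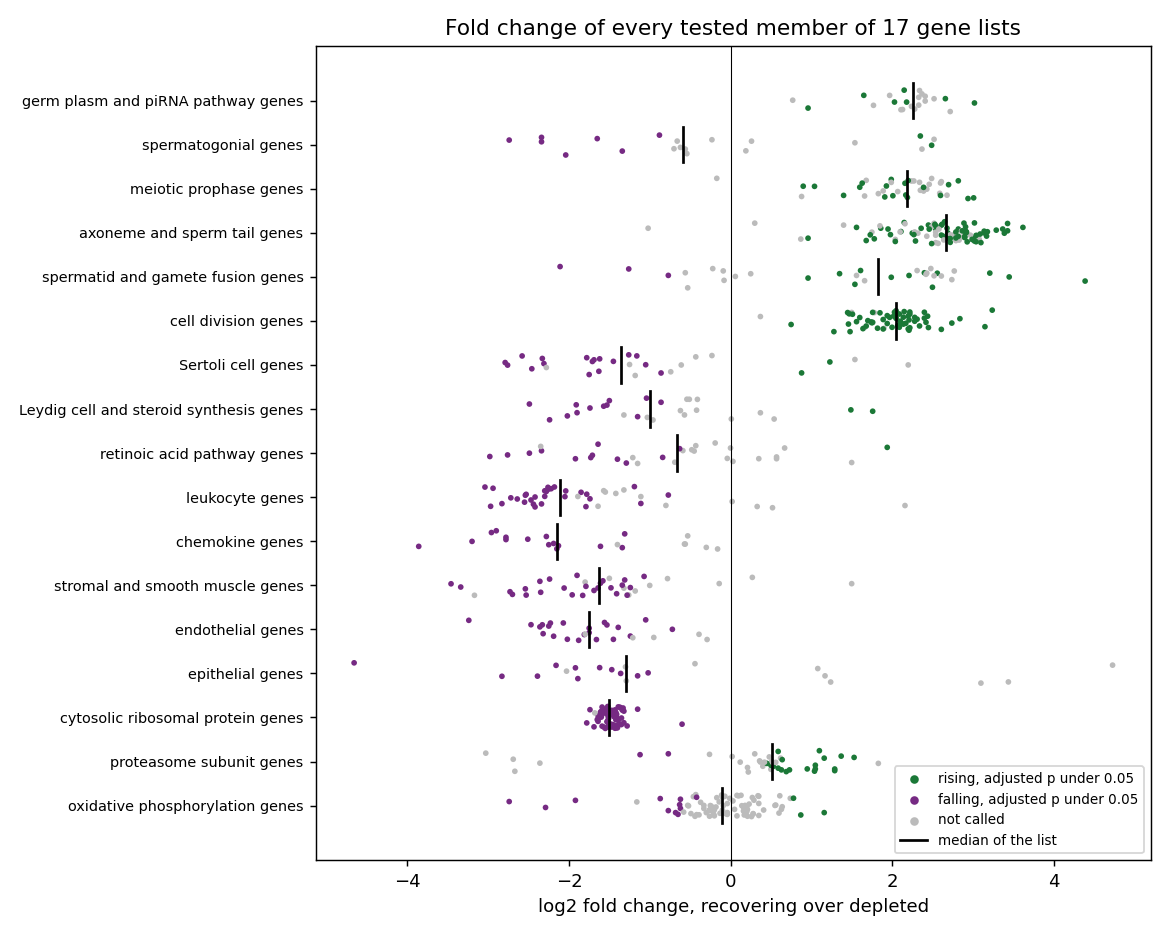
Log2 fold change of recovering over depleted testes for every tested member of 17 gene lists; green points rose and purple points fell at an adjusted p under 0.05, grey points were not called, and black bars are medians. Germ plasm, meiotic, axoneme and cell division genes lie almost all to the right of 0. Endothelial and ribosomal protein genes lie to the left, as do leukocyte genes except for 4 of 42. The medians of proteasome and oxidative phosphorylation genes are close to 0.

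Sertoli cell genes were lower in recovering testes, by amounts that differed between genes. fshr, the receptor of follicle-stimulating hormone (ENSDARG00000071494), had 14.4, 23.0, 19.8, 20.6 and 28.3 CPM in the recovering testes, against 150, 85.6, 245, 235 and 18.6 CPM in the depleted testes (log2 fold change −2.79, SE 0.57, adjusted p = 0.00467). Depleted replicate 5 lay within the recovering range and the other 4 depleted libraries above it. wt1, a transcription factor gene of the somatic gonad, was 26.5 ± 11.4 CPM in recovering and 159 ± 47.6 CPM in depleted testes (−2.58 ± 0.33) without overlap. amh, the gene of anti-Müllerian hormone, which holds back spermatogonial differentiation in zebrafish, had 142, 353, 357, 239 and 105 CPM in the recovering testes, against 338, 800, 733, 554 and 249 CPM in the depleted testes (log2 fold change −1.16, SE 0.43, adjusted p = 0.0428). Its groups overlapped, and the call ended without depleted replicates 2, 3 or 4 or recovering replicates 1, 4 or 5, at adjusted p of 0.0710 to 0.0905.

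Other Sertoli signals did not pass the test. gsdf was at 895, 1720, 1170, 1720 and 817 CPM in the recovering testes, against 872, 2310, 2050, 2920 and 1530 CPM in the depleted testes (log2 fold change −0.61, SE 0.36, adjusted p = 0.161). igf3, a gonadal insulin-like growth factor of fish that promotes spermatogonial differentiation, was at 15.8, 43.5, 16.4, 13.4 and 18.5 CPM in the recovering testes, against 15.3, 39.5, 47.6, 152 and 2.62 CPM in the depleted testes (log2 fold change −1.25, SE 0.80, adjusted p = 0.199). dmrt1, a transcription factor of Sertoli and germ cells, was at 404, 495, 493, 459 and 411 CPM in the recovering testes, against 372, 676, 452, 460 and 686 CPM in the depleted testes (log2 fold change −0.23, SE 0.21, adjusted p = 0.377). Of 28 Sertoli cell genes tested 17 fell and 2 rose, against 28.0% and 24.1% of all genes, with a median of −1.36, and 13 lay lower in every recovering library, against 15.0% of all genes. The 2 that rose were the inhibin subunit gene inhbb (0.88 ± 0.33) and the Notch ligand gene jag1a (1.23 ± 0.39). inhbb was called in 1 of the 10 fits without a library, the one without depleted replicate 2, and jag1a lost its call without depleted replicate 4 or recovering replicate 5 (adjusted p = 0.0561 and 0.0570). Without depleted replicate 2 the rising count was 4. The summed level of the list was 3390 to 5440 CPM in recovering and 7880 to 13100 CPM in depleted testes.

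Leydig cell and steroid genes included several that fell, with depleted replicate 5 apart from the other depleted libraries. star, which brings cholesterol into mitochondria (ENSDARG00000006137), had 416, 271, 352, 386 and 544 CPM in the recovering testes, against 1360, 1750, 1790, 1490 and 209 CPM in the depleted testes (log2 fold change −1.74, SE 0.48, adjusted p = 0.0138). cyp17a1, an enzyme of androgen synthesis, had 390, 367, 327, 399 and 407 CPM in the recovering testes, against 453, 1380, 752, 971 and 338 CPM in the depleted testes (log2 fold change −1.04, SE 0.35, adjusted p = 0.0301). insl3 had 1930, 1930, 1680, 2130 and 2250 CPM in the recovering testes, against 2330, 8780, 1630, 6160 and 353 CPM in the depleted testes (log2 fold change −0.96, SE 0.66, adjusted p = 0.23). In the recovering testes these 3 genes varied little, whereas in the depleted testes replicate 5 was the lowest library for each. cyp11a1 (ENSDARG00000092696), the side-chain cleavage enzyme, was at 54.9 ± 23.5 CPM in recovering and 222 ± 113 CPM in depleted testes (−2.02 ± 0.54).

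Of 26 Leydig and steroid genes tested 12 fell and 2 rose, against 28.0% and 24.1% of all genes, with a median of −0.99. The falling count was 7 without depleted replicate 3, recovering replicate 1 or recovering replicate 3 and 6 without recovering replicate 2, and 7 under total-count scaling. It was 3 with the replicate number as a block, where the median was −0.76 and 4499 of all 19843 genes fell. cyp17a1 kept its call only without depleted replicates 1 or 5, and its adjusted p was 0.0506 to 0.0683 otherwise. Without depleted replicate 5 insl3 was called (−1.26, adjusted p = 0.0479). The 2 rising genes were hsd17b1 (1.76 ± 0.61) and hsd17b12 (1.49 ± 0.55), both 17-beta-hydroxysteroid dehydrogenase genes. The log2 fold change of hsd17b1 was 2.51 without depleted replicate 2 and its call ended in 7 fits, without depleted replicates 1, 3 or 4 or recovering replicates 2 to 5. hsd17b12 kept its call only without depleted replicate 1, recovering replicate 2 or recovering replicate 5, and its log2 fold change was 0.67 without recovering replicate 4.

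Hormone and growth factor receptors and their ligands fell in 17 of 28 tested genes and rose in 1, against 28.0% and 24.1% of all genes, with a median of −1.19. lhcgr, the receptor of luteinizing hormone (ENSDARG00000026081), had 6.76, 3.84, 2.72, 5.84 and 10.5 CPM in the recovering testes, against 24.1, 17.9, 57.2, 39.1 and 27.8 CPM in the depleted testes (log2 fold change −2.49, SE 0.43, adjusted p = 0.00282), and no recovering library reached the lowest depleted one. ar, the androgen receptor gene (ENSDARG00000067976), had 18.2, 20.6, 21.5, 13.1 and 36.2 CPM in the recovering testes, against 40.5, 32.5, 91.6, 79.9 and 41.7 CPM in the depleted testes (log2 fold change −1.38, SE 0.36, adjusted p = 0.011), with recovering replicate 5 above the lowest depleted library. The largest falls were those of pdgfra, a platelet-derived growth factor receptor gene of mesenchymal cells (−3.34 ± 0.56), and igf2a, an insulin-like growth factor gene (−2.84 ± 0.49), followed by fshr. rxfp2 (ENSDARG00000019660), which codes for the receptor of insulin-like 3 in mammals, was the member that rose, with 3.79 ± 1.76 CPM in recovering and 0.478 ± 0.686 CPM in depleted testes (2.98 ± 0.95). It stood at 3.95 without depleted replicate 2, where only depleted replicate 1 held any counts. It lost its call without recovering replicates 2, 3 or 5, at adjusted p of 0.0504 to 0.0543.

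The genes of retinoic acid that fell included enzymes of its synthesis and of its breakdown. aldh1a2, which makes retinoic acid (ENSDARG00000053493), had 1050, 914, 532, 1480 and 1230 CPM in the recovering testes, against 2710, 3210, 4620, 4100 and 2450 CPM in the depleted testes (log2 fold change −1.71, SE 0.32, adjusted p = 0.00342). cyp26b1, which degrades it, had 19.5, 5.43, 10.1, 9.70 and 21.9 CPM in the recovering testes, against 67.3, 45.7, 150, 128 and 59.7 CPM in the depleted testes (log2 fold change −2.76, SE 0.47, adjusted p = 0.00276). Neither gene overlapped between the groups. cyp26a1, another degrading enzyme, did overlap, with 46.5, 75.1, 94.9, 38.7 and 77.9 CPM in the recovering testes, against 85.7, 45.0, 186, 83.1 and 49.3 CPM in the depleted testes (log2 fold change −0.43, SE 0.40, adjusted p = 0.377). Of 30 genes of the pathway tested 12 fell and 1 rose, against 28.0% and 24.1% of all genes, with a median of −0.66. The beta-carotene oxygenase genes annotated as bco2 went opposite ways: one (ENSDARG00000055722) had 5.48 ± 2.54 CPM in recovering and 30.9 ± 12.7 CPM in depleted testes, and the other (ENSDARG00000041715), the pathway's single rise, had 5.82 ± 4.36 CPM in recovering and 1.51 ± 0.534 CPM in depleted testes.

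Leukocyte genes fell broadly. ptprc, which codes for the pan-leukocyte antigen CD45 (ENSDARG00000071437), had 53.3, 19.3, 14.7, 44.9 and 31.6 CPM in the recovering testes, against 108, 71.6, 102, 86.4 and 179 CPM in the depleted testes (log2 fold change −1.74, SE 0.39, adjusted p = 0.00614). No recovering library reached a depleted one. The macrophage receptor gene csf1rb averaged 1.89 ± 1.14 CPM in recovering and 15.4 ± 11.2 CPM in depleted testes (−3.04 ± 0.69), and the class II gene mhc2dab 48.2 ± 43.0 CPM in recovering and 379 ± 253 CPM in depleted testes (−2.97 ± 0.65, or −3.68 without recovering replicate 1). Both tested mpeg1 genes, which mark macrophages, fell, with log2 fold changes of −1.79 ± 0.53 (ENSDARG00000043093) and −2.18 ± 0.57 (ENSDARG00000055290). Of 42 leukocyte genes tested 30 fell and none rose, against 28.0% and 24.1% of all genes, with a median of −2.11. In 14 of the 42 every recovering library was the lower, against 15.0% of all genes. A positive log2 fold change was found in 4 of the 42, up to 2.16, and none of these was called.

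The lysozyme gene lyz depended on 1 library. It had 63.1, 6.14, 6.98, 7.30 and 14.3 CPM in the recovering testes, against 43.4, 42.3, 40.6, 14.8 and 608 CPM in the depleted testes (log2 fold change −2.94, SE 1.14, adjusted p = 0.05, just under the threshold before rounding), and without depleted replicate 5 the log2 fold change was −0.86 and was not called (adjusted p = 0.332). Without recovering replicate 1 it was −4.10, and the call also ended without depleted replicates 1 or 3 or recovering replicates 2 to 5. Chemokine genes fell in 15 of 21 tested (28.0% of all genes), with no rise and a median of −2.15. cxcl18b, a chemokine of inflamed fish epithelium and stroma, was at 11 ± 5.79 CPM in recovering and 85.6 ± 56.1 CPM in depleted testes (−2.96 ± 0.54), and ccl38a.4 and ccl34a.4, CC chemokine genes, had log2 fold changes of −3.86 ± 0.79 and −3.20 ± 0.81. Without recovering replicate 4 the log2 fold change of ccl38a.4 was −4.67.

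Genes of stroma and vessels fell too. Of 36 stromal and smooth muscle genes 25 fell and none rose, against 28.0% and 24.1% of all genes, with a median of −1.62. The count under total-count scaling was 17. The largest falls there were the mesenchymal transcription factor gene twist1a (−3.46 ± 0.86) and pdgfra, and twist1b, named after its values were seen, also fell (−2.70 ± 0.66). Depleted replicate 5 weighed on both: without it they stood at −2.33 and −2.06, and twist1a at −4.10 without recovering replicate 1. The fibrillar collagen gene col1a1a had 955, 140, 176, 648 and 327 CPM in the recovering testes, against 531, 386, 1280, 1100 and 3060 CPM in the depleted testes (log2 fold change −1.50, SE 0.67, adjusted p = 0.0804). It was called without depleted replicate 2 (−1.73, adjusted p = 0.0443) or recovering replicate 1 (−1.97, adjusted p = 0.0420).

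Endothelial genes fell in 22 of 27 tested (28.0% of all genes), all 27 had a negative log2 fold change, and the median was −1.75. cd34, a surface antigen of vessels and stroma, was at 15.8 ± 11 CPM in recovering and 149 ± 147 CPM in depleted testes (−3.24 ± 0.73, or −2.46 without depleted replicate 5). The junction genes cldn5 (ENSDARG00000043716) and cdh5 stood at −2.47 ± 0.54 and −2.36 ± 0.48, with no overlap between groups. Red blood cell genes fell in 4 of 10 tested, not far from the 28.0% of all genes. That count was 2 without depleted replicates 1, 4 or 5 or recovering replicates 1, 2, 4 or 5, and 1 under total-count scaling. cahz, a carbonic anhydrase gene of fish red cells, was at 195 ± 54.9 CPM in recovering and 519 ± 234 CPM in depleted testes (−1.41 ± 0.33).

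Epithelial genes fell in 11 of 21 tested, with none rising, against 28.0% and 24.1% of all genes, and a median of −1.30, and the count was 7 without recovering replicate 3. krt8, a keratin gene of simple epithelia (ENSDARG00000058358), had 2370, 749, 450, 1570 and 2090 CPM in the recovering testes, against 5510, 4120, 6500, 8190 and 8060 CPM in the depleted testes (log2 fold change −2.16, SE 0.46, adjusted p = 0.00554), so every depleted library exceeded every recovering one. krt15 was at 237 ± 259 CPM in recovering and 1680 ± 407 CPM in depleted testes (−2.83 ± 0.69, or −3.73 without recovering replicate 5). krt92 carried the largest fall of the list (−4.66 ± 1.49), but without depleted replicate 2 it was −1.37 and not called, and the call also ended without recovering replicates 1, 2, 3 or 5.

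Complement and acute phase genes, which are abundant in liver, stood highest in depleted replicate 4 and next in replicate 1. Their summed level was 2090, 414, 372, 436 and 1220 CPM in recovering testes, against 8010, 1670, 2890, 28600 and 4510 CPM in depleted testes. c3a.2, a complement component 3 gene, had 3.54, 1.53, 3.04, 1.25 and 4.49 CPM in the recovering testes, against 52.6, 1.62, 0.46, 574 and 0.525 CPM in the depleted testes (log2 fold change −5.49, SE 1.84, adjusted p = 0.03). c9, of the terminal complex, had 5.30, 1.85, 1.68, 0.313 and 8.37 CPM in the recovering testes, against 112, 0.404, 0.575, 651 and 0.131 CPM in the depleted testes (log2 fold change −5.44, SE 2.03, adjusted p = 0.0441). For both genes depleted replicates 1 and 4 lay above all other libraries. Both calls ended without depleted replicate 4, at log2 fold changes of −2.32 and −3.02, although c9 was −6.06 without recovering replicate 5. They also ended without any 1 of the 5 recovering replicates, and that of c9 without depleted replicate 1. Of 29 genes tested 10 fell and 1 rose, and the falling share is near the 28.0% of all genes. That share does not show the size of the changes. Only 2 of the 29 genes had a positive value, the list median was −3.32, and its median SE was 1.37. Without depleted replicate 4 the list median was −2.13, and with the replicate number as a block it was −0.35. DESeq2 called 23 as falling and limma-voom with sample weights 6. The falling count was 22, 19 and 21 without depleted replicates 2, 3 and 5, and 5 without depleted replicate 4 or recovering replicates 2 to 5. Their part in the other falls was not tested.

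Ribosomal protein genes made the tightest group among those that fell. rps20, of the small subunit (ENSDARG00000036044), had 615, 436, 348, 844 and 564 CPM in the recovering testes, against 877, 2350, 1200, 1690 and 2950 CPM in the depleted testes (log2 fold change −1.69, SE 0.37, adjusted p = 0.00609), with no overlap. Of 70 cytosolic ribosomal protein genes tested 69 fell, none rose and 59 were lower in every recovering library, against 28.0% of all genes that fell and 15.0% that were lower throughout, and the median was −1.51, with a range of −1.78 to −0.60. Under total-count scaling 68 fell, with a median of −1.18. Summed, they came to 25800 to 58000 CPM in recovering testes and 65200 to 171000 CPM in depleted testes.

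Proteasome genes leaned the other way. Of 42 tested 19 rose and 2 fell, against 24.1% and 28.0% of all genes, with a median of 0.51. In 12 every recovering library was the higher, a share near the 19.6% of all genes. The rising count was 12 without depleted replicate 1, 32 with limma-voom and sample weights and 32 under total-count scaling. Of the regulatory particle, psmd1 averaged 336 ± 29.6 CPM in recovering and 117 ± 40.5 CPM in depleted testes, and psmd11 (ENSDARG00000005134) 96.7 ± 12.9 CPM in recovering and 37.4 ± 11.4 CPM in depleted testes. psma6l went against the list, with 12.6 ± 3.76 CPM in recovering and 27.3 ± 11.1 CPM in depleted testes (−1.12 ± 0.30).

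Oxidative phosphorylation genes did not share a direction. Of 87 nuclear genes tested 3 rose and 11 fell, shares below those of all genes, and the median was −0.10, or 0.22 under total-count scaling, where 18 rose and 4 fell. The rising count was 8 with DESeq2, 15 with limma-voom and sample weights, 12 without depleted replicate 2 and 1 without any 1 of depleted replicates 1, 3, 4 or 5 or recovering replicate 3, and the falling count was 5 to 7 without depleted replicates 4 or 5 or recovering replicates 2, 3 or 5. The falls were led by cox4i2 and cox7a1, tissue-restricted subunits of cytochrome oxidase. cox4i2 averaged 11.1 ± 7.51 CPM in recovering and 73.9 ± 16.9 CPM in depleted testes, and cox7a1 9.89 ± 3.23 CPM in recovering and 48.2 ± 12.4 CPM in depleted testes. ndufb2, of complex I, was the largest rise, with 94.9 ± 15.7 CPM in recovering and 42.3 ± 15.7 CPM in depleted testes. Among transcripts of the mitochondrial genome, mt-co3 had 6390, 3110, 2710, 7550 and 3990 CPM in the recovering testes, against 8620, 11700, 8940, 13000 and 10500 CPM in the depleted testes (log2 fold change −1.15, SE 0.34, adjusted p = 0.0194) and mt-co2 averaged 4430 ± 1930 CPM in recovering and 9950 ± 1760 CPM in depleted testes.

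Tubulin and collagen genes showed no common direction beyond the share of all genes. Of 14 tubulin genes 4 rose and 2 fell, or 4 fell without depleted replicate 2, and 9 rose under total-count scaling and 8 with limma-voom and sample weights. tuba1c had the largest rise, with 20.8 ± 6.25 CPM in recovering and 5.66 ± 3.81 CPM in depleted testes. Of 45 collagen genes 8 rose and 13 fell, against 24.1% and 28.0% of all genes, with a median of −1, and 15 rose with limma-voom and sample weights. The rising count was 1 without depleted replicates 3 or 4 or recovering replicates 2 or 3 and 4 without recovering replicates 4 or 5, and the falling count was 8 without depleted replicate 3. The basement membrane gene col4a3 rose (2.81 ± 0.80, or 3.69 without depleted replicate 2), and the microfibril gene col6a1 fell (−2.53 ± 0.66, or −3.20 without recovering replicate 1).

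Of stress response, repair and cell cycle arrest only 5 single genes are described, which stand for no list. sesn1, a stress-induced inhibitor of growth signalling (ENSDARG00000020693), had 45.9, 40.2, 44.7, 53.6 and 82.0 CPM in the recovering testes, against 201, 162, 368, 292 and 233 CPM in the depleted testes (log2 fold change −2.24, SE 0.28, adjusted p = 0.00219), with every recovering library lower. gadd45b (ENSDARG00000027744) stood at −2.71 ± 0.74, or −1.81 without depleted replicate 5. xpc, of nucleotide excision repair, rose (1.36 ± 0.22), as did the transcription factor gene tp73 (2.46 ± 0.78), which was 3.28 without depleted replicate 2 and lost its call without depleted replicate 3 (adjusted p = 0.0555). The cell cycle inhibitor gene cdkn1a, named after its values were seen, fell: it averaged 11.8 ± 2.29 CPM in recovering and 23.6 ± 7.30 CPM in depleted testes, and it kept its call under total-count scaling.

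Notch pathway genes moved both ways: of 27 tested 7 rose and 13 fell, against 24.1% and 28.0% of all genes, with a median of −0.51, and 9 fell under total-count scaling. The target genes hey1 and her1, repressors switched on by Notch, rose: hey1 averaged 24.7 ± 8.69 CPM in recovering and 8.53 ± 2.66 CPM in depleted testes, and her1 2.02 ± 0.773 CPM in recovering and 0.654 ± 0.302 CPM in depleted testes. The ligand gene dll4 and the Fringe genes lfng and mfng, which modify the receptors, fell without overlap, with log2 fold changes of −2.06 ± 0.31, −2.15 ± 0.42 and −2.17 ± 0.39. Of 23 oocyte genes 10 were tested, 4 rose and 3 fell, the falls at about the 28.0% of all genes and the rises against 24.1%, or 7 rose without depleted replicate 2. zar1l and buc led the rises, and zar1l averaged 8.53 ± 0.797 CPM in recovering and 2.08 ± 2.15 CPM in depleted testes (2.03 ± 0.61, or 2.79 without depleted replicate 2). The falls were those of rbpms2 (ENSDARG00000045930 at −2.32 ± 0.48 and ENSDARG00000079578 at −1.97 ± 0.37) and h1-10 (−0.67 ± 0.25). The summed level of the oocyte list overlapped, with 400 to 576 CPM in recovering and 431 to 694 CPM in depleted testes.

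The largest falls among genes with a mean of at least 5 CPM and no overlap came from no single list. gapdh, the glycolytic enzyme (ENSDARG00000043457), had 53.2, 38, 24.0, 30.4 and 86.5 CPM in the recovering testes, against 409, 498, 516, 1240 and 193 CPM in the depleted testes (log2 fold change −3.62, SE 0.54, adjusted p = 0.00237). Depleted replicate 4 was its highest library. Without depleted replicate 4 jac2, a jacalin family gene, stood at −2.22 in place of −4.49, ces2a, a carboxylesterase gene, at −2.05 in place of −3.93, and gpr17, a receptor gene, at −3.20 in place of −3.95. vmo1a, a vitelline membrane outer layer gene, had the largest fall (−4.81 ± 0.81; −5.59 without recovering replicate 5), with 1.54 ± 1.5 CPM in recovering and 43.1 ± 21.6 CPM in depleted testes. The prostaglandin D synthase gene ptgdsa (−4.52 ± 0.75), the cytochrome P450 gene cyp2n13 (−4.26 ± 0.96; −4.98 without recovering replicate 1) and the sialidase gene neu3.5 (−4.07 ± 0.85; −3.24 without depleted replicate 5) came next apart from jac2. The adhesion gene cdh10a (−3.99 ± 0.74; −3.22 without depleted replicate 5), the receptor ligand gene alkal2b (−3.88 ± 0.67) and the retinoid carrier gene rbp7 (−3.43 ± 0.73) were also among the 12.

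By width of the gap between groups, the falls were led by mhc1zda, steap4, sftpbb, scarb2c and rca2.2. steap4, a metalloreductase gene (ENSDARG00000055901), had 34.8, 10.8, 14.3, 14.4 and 31.6 CPM in the recovering testes, against 185, 117, 222, 228 and 175 CPM in the depleted testes (log2 fold change −3.13, SE 0.38, adjusted p = 0.00219). The highest recovering library was at 34.8 CPM and the lowest depleted library at 117 CPM. The class I gene mhc1zda averaged 6.45 ± 2.23 CPM in recovering and 52.8 ± 24.8 CPM in depleted testes, and the scavenger receptor gene scarb2c 7.96 ± 5.01 CPM in recovering and 64.4 ± 19.8 CPM in depleted testes. The falls named for their difference in mean CPM were those of actb2, mt-co3, mt-co2, eef1a1l1 and krt8. The beta-actin gene actb2 had 5840, 2390, 1650, 5240 and 4460 CPM in the recovering testes, against 7000, 8250, 13400, 14400 and 17900 CPM in the depleted testes (log2 fold change −1.64, SE 0.43, adjusted p = 0.0115). eef1a1l1, a translation elongation factor gene, averaged 4290 ± 1050 CPM in recovering and 9620 ± 3150 CPM in depleted testes (−1.17 ± 0.31).

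Little changed genes were those with a log2 fold change within 0.2 of 0 and an SE under 0.25. The most abundant of them with a gene name were hsp90ab1, atp5f1b, atp5f1a, ran and srgn, chosen by mean CPM. The chaperone gene hsp90ab1 had 3800, 4120, 4110, 4400 and 3970 CPM in the recovering testes, against 3610, 4320, 3830, 5390 and 6090 CPM in the depleted testes (log2 fold change −0.19, SE 0.23, adjusted p = 0.495). ran, the GTPase of nuclear transport, averaged 503 ± 56.6 CPM in recovering and 503 ± 96.1 CPM in depleted testes. Of the ATP synthase genes, atp5f1b averaged 618 ± 54.0 CPM in recovering and 666 ± 174 CPM in depleted testes, and atp5f1a 547 ± 47.9 CPM in recovering and 581 ± 114 CPM in depleted testes. srgn, of secretory granules, averaged 474 ± 56.4 CPM in recovering and 512 ± 117 CPM in depleted testes. Under total-count scaling atp5f1b, atp5f1a, ran and srgn had log2 fold changes of 0.20 to 0.31, none called.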

How the data were processed

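RNA of 14 testis libraries was analysed, and the comparison used the 5 recovering and 5 depleted libraries, grouped by sample title. The authors deposited whole-number counts, a table per library with an Ensembl gene identifier in each row and no header. The submitters' processing notes name the genome build Zv9, FastQC 0.10.1, TopHat2 2.0.5, SAMtools 0.1.18, HTSeq and DESeq; their roles and settings, the annotation and any strand setting are not given in the sources used here. Genes that overlap or have near copies are therefore uncertain. Symbols were paired with 21948 of 33752 identifiers and are written in lower case, with the identifier where several share one. No gene lengths were used, so the bins by level and the choice of genes by CPM difference also depend on transcript length.

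Genes kept by filterByExpr were tested with edgeR 4.0.16 in R 4.3.3 (TMM scaling, 2 groups, quasi-likelihood F-test, Benjamini-Hochberg adjustment over 19843 genes, threshold 0.05). The SE is the log2 fold change divided by the square root of F. The script was tested on simulated data. Replicates differed by more than sampling noise. The design text calls them biological replicates. The deepest library held 25035915 counts and the shallowest 8123444, and 3 counts in a library correspond to 0.107 to 0.404 CPM, which covers counting error only.

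Alternatives were other scalings, filters, tests (DESeq2 1.42.0, limma-voom 3.58.1), all 14 libraries, a replicate block, thinning and leaving out libraries. Named genes were the largest changes, CPM differences and gaps, and up to 3 called members per list and direction. Also named were a core set whatever its values, the most abundant of the little changed genes and members that go against their list. Members and lists were chosen with earlier results of these data known. Some genes are not reported here.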

Additional observations from a re-analysis of the deposited data

Results flagged for a closer look

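A Dixon test of the most extreme library was applied to 124 sets of 5 values, and 14 stood apart. For independent sets of normally distributed values chance alone flags about 1 set in 20, or 6.2. These CPM values were not transformed, and the sets share libraries, so the 2 numbers do not measure an excess over chance. Among recovering testes, replicate 3 stood above the others for tdrd7a (1890 CPM, the next at 1020), mki67 (934 CPM, the next at 659) and hydin (870 CPM, the next at 570). Recovering replicate 1 was low for spo11 (42.0 CPM, the next at 58.1) and high for lyz (63.1 CPM, the next at 14.3), and recovering replicate 2 was high for igf3 (43.5 CPM, the next at 18.5). Among depleted testes, replicate 2 stood above the others for tssk6 (4.04 CPM, the next at 0.262) and pimr196 (1.75 CPM, the next at 0.129). Depleted replicate 3 was high for cyp26a1 (186 CPM, the next at 85.7). Depleted replicate 5 was low for star (209 CPM, the next at 1360) and high for lyz (608 CPM, the next at 43.4). Depleted replicate 4 was high for c3a.2 (574 CPM, the next at 52.6), c9 (651 CPM, the next at 112) and the summed complement and acute phase genes (28600 CPM, the next at 8010).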

How the results depend on the processing

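Of the 139 genes named, none that was called in either fit changed direction under the 23 alternatives, while 18 called genes lost the call in at least 1 fit without a library. At an adjusted p under 0.01, 4789 genes were called (1960 rising, 2829 falling), 4080 of them with a log2 fold change over 1 in size. Leaving out each library gave 7787 to 12462 calls, with 3434 to 6041 rising and 4353 to 6421 falling. With depleted replicates 1 and 2 both left out, chosen after seeing the data, 13098 were called. Scaling by total counts raised the share of calls that rise to 62.7%, against 50.9% with RLE size factors and 44.0% with upper quartiles. With the replicate number as a block, 8869 genes were called. Same-numbered samples deviated together in 1 of 5 pairs (correlations −0.168 to 0.245, other pairs −0.42 to 0.374), and 1 of 10 samples correlated best with its own number. The numbers thus showed no sign of pairing the samples, but 5 pairs are too few to exclude it. Taking only libraries under 20000000 counts removed recovering replicate 3 and gave 7787 calls. Thinning every library to the smallest total gave 9991 calls. The median SE was 0.52 among genes at 0.651 to 4.05 CPM.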

Other observations

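Gene families picked after their values were seen, and described without a test of the family, included parts of the cilium and the dividing cell. Because they were picked with these values known, their counts beside the shares of all genes are a description and no independent support. All 13 intraflagellar transport genes tested, whose products carry cargo along the growing axoneme, rose (median log2 fold change 2.02, or 2.71 without depleted replicate 2). Each had every recovering library above every depleted one, against 24.1% of all genes that rose and 19.6% without overlap. Of 30 centrosomal cep genes 25 rose and 2 fell, against 24.1% and 28.0% of all genes, with a median of 1.63. Of 18 nucleoporin genes, which build the nuclear pore, 15 rose and none fell, against the same shares of all genes, with a median of 1.06. Their summed level was 1810 to 2550 CPM in recovering testes, against 1050 and 1280 CPM in depleted replicates 1 and 2 and 711 to 843 CPM in the other 3 depleted libraries.

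A few members went far from their lists without passing edgeR's test. The keratin gene krt5 averaged 406 CPM in recovering and 15.3 CPM in depleted testes (log2 fold change 4.73, SE 2.02, adjusted p = 0.0688), while the epithelial list had a median of −1.3. The SE of krt5 is large and its levels in single libraries are not given here. Its mean therefore need not be typical of a recovering testis. The immunoproteasome genes psmb8, psmb9, psmb12 and psmb13a had log2 fold changes of −2.67, −2.69, −2.36 and −3.03 with SE of 1.43 to 1.65, while the proteasome list had a median of 0.51.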
